A study of Homo sapiens with 22 samples.

Results

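Untreated cells of the Burkitt lymphoma line Daudi were compared with untreated cells of Namalwa and Raji, 2 other Burkitt lymphoma lines, to find the genes that differed from both lines in the same direction. The comparison rests on 6 of the 22 arrays of the series, 2 per line, chosen by the line and the treatment that the labels give. The series as a whole adds 3 lines of diffuse large B-cell lymphoma (DLBCL), namely HT, SU-DHL4 and SU-DHL6, and has every line untreated and after 5-aza-2'-deoxycytidine (5-aza-dC, which blocks DNA methyltransferases) with trichostatin A (TSA, which blocks histone deacetylases). RNA was read on Affymetrix human arrays, where probe sets of short oligonucleotides report each transcript. The untreated cells of all 3 lines were grown in the same serum-supplemented RPMI medium and carried no added agent. The 6 treated Burkitt arrays had 6 days of 5-aza-dC, at 5 µM by the titles and 3 µM by the protocol, with 625 nM TSA for the last 24 h, and they serve below as arrays that the untreated comparison did not use. Each group is a single established line, so a difference between lines has 1 line on each side, and nothing in the labels says that the 2 arrays of a line came from separate cultures. The p-values therefore measure the spread between these arrays only, which may be technical.

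Burkitt lymphoma is a MYC-driven tumour of germinal centre B cells. The 3 lines are known to carry Epstein-Barr virus, and they differ in which viral genes they can use: the virus in Daudi has lost EBNA2, the viral transcription factor that turns on host activation genes and the viral signalling protein LMP1, whereas Raji expresses both. Daudi is also known for the lack of HLA class I at its surface, through defects in beta-2 microglobulin, and for its sensitivity to type I interferon. Interferon binds its receptor and activates the kinases JAK1 and TYK2, and the transcription factor complex that forms switches on a large set of antiviral genes through promoter elements built around paired GAAA or TTTC blocks.

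Values are log2 expression after robust multi-array averaging (RMA), and a difference of 1 is a doubling. Medians of the 6 untreated Burkitt arrays lay between 6.74 and 6.79, and the interquartile ranges between 2.32 and 2.52. Duplicates correlated at 0.991 in Daudi, 0.992 in Namalwa and 0.98 in Raji over all probe sets. Raji replicate 2 stood apart in the control probe sets that compare the 3′ with the 5′ end of a transcript: its ACTB difference was 0.07 against -0.76 to -0.56 on the other 5 arrays, and its GAPDH difference 0.64 against -0.02 to 0.22. The part of this shift in the results was not tested, and counts are given with and without that array. B-cell markers were high on every array, with a mean of 9.78 to 10.14 over 12 genes and no gene below 6. Means of the T-cell, NK-cell, myeloid and epithelial or stromal lists lay between 5.65 and 7.05. Those of the NK-cell, myeloid and epithelial or stromal lists were below the array medians, the myeloid means lowest at 5.65 to 5.98. The T-cell list holds TRBC1 and LCK, which read up to 10.15 and 9.53. In bulk RNA, fewer cells that express a gene and less RNA per cell cannot be told apart.

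Of 11963 genes tested with limma, 191 were higher in Daudi than in both other lines, which is 1.6% of the genes, and 263 were lower, which is 2.2%. Counts of list members below stand against these 2 shares of all genes. A call needed a Benjamini-Hochberg adjusted p under 0.05 against Namalwa and against Raji with the same sign. The 454 genes are 3.8% of all genes, and 36 more genes passed against both lines with opposite signs. The 2 contrasts share the Daudi arrays. Where a pair of differences is given for a gene, the first is Daudi minus Namalwa and the second Daudi minus Raji on the log2 scale, with ± for the SE of the fit, and a negative value is lower in Daudi. Against Namalwa alone, 461 genes were higher (3.85%) and 645 lower (5.39%) in Daudi, together 9.25% of genes. Against Raji alone, 471 were higher (3.94%) and 760 lower (6.35%), together 10.3%. Namalwa was higher than Raji in 614 genes (5.13%) and lower in 733 (6.13%), together 11.3%. The smaller of the 2 differences reached 1 on the log2 scale in 84 of the higher genes (0.702% of all genes) and 114 of the lower genes (0.953%), and it reached 3 in 6 and 11. Just inside the threshold lay UBE2L6, LY96 and NRGN, with a larger adjusted p of 0.0499, and just outside lay REL at 0.0502, FASTKD2 at 0.0505 and RUFY2 at 0.0506. With all 22 arrays in the fit, 107 genes were higher and 147 lower. Single arrays decided part of these counts. Without Daudi replicate 1 or 2, Namalwa replicate 1 or 2, the higher genes numbered 52, 76, 48 and 62 and the lower genes 109, 71, 67 and 82. Without Raji replicate 1 they numbered 289 and 420, and without Raji replicate 2 they numbered 284 and 368. Among the 30 largest differences described below, 24 were called whichever array was left out.

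**Figure D1:**
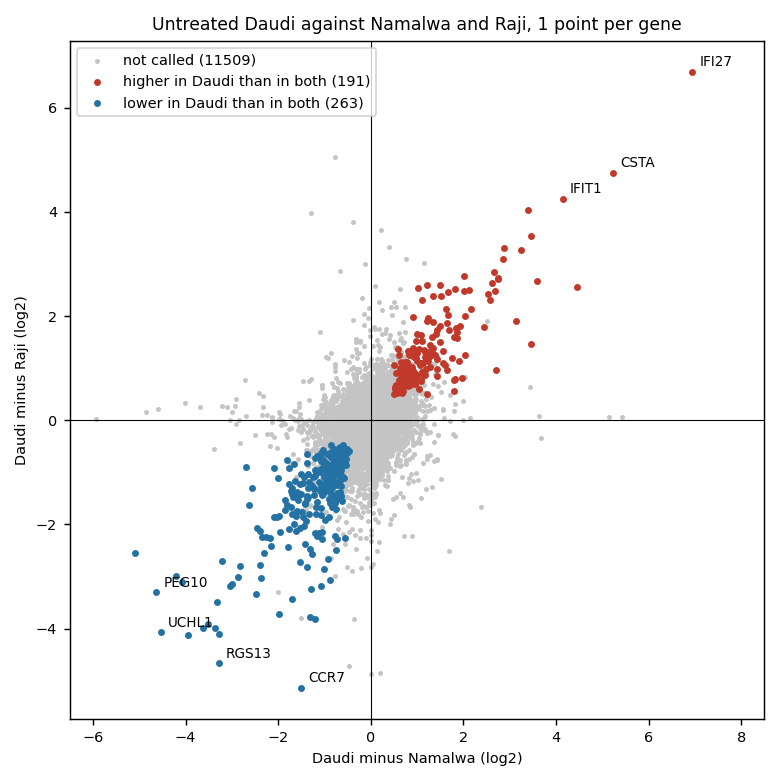
Daudi minus Namalwa (x axis, log2) against Daudi minus Raji (y axis, log2) on the untreated arrays, 1 point per gene for 11963 genes, with the 191 genes higher and the 263 lower than in both lines in colour. IFI27 lies farthest out at the top right, at 6.94 and 6.69, and the genes with the largest deficits, among them UCHL1, PEG10 and RGS13, at the bottom left; both axes use the same Daudi arrays.

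Genes induced by interferon made up 6 of the 15 genes with the largest excess in Daudi. Of 51 measured interferon-stimulated genes, 20 were higher in Daudi than in both lines and 0 were lower. Over all genes 1.6% were higher and 2.2% lower. With all 22 arrays in the fit, 10 were higher. The median of the 51 genes was 0.89 against Namalwa and 0.86 against Raji, where the medians of all genes were 0.01 and 0.00. In each single contrast 24 members were higher and 2 lower. IFI27, a small membrane protein gene strongly induced by interferon, read 13.10 and 12.89 in Daudi, 6.10 and 6.02 in Namalwa and 6.66 and 5.95 in Raji. Both Daudi arrays lay far above the other 4, which were all below the array medians. The difference was 6.94 ± 0.23 (SE) from Namalwa and 6.69 ± 0.23 from Raji (limma adjusted p = 2.39e-05 and 4.79e-05).

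Sequences before the start of 6 of these genes are shown because they are the interferon-list members among the 15 genes with the largest excess in Daudi. Each run is the RefSeq promoter window of GRCh38.p14, 250 bases before to 50 after the gene's start, on the + strand. Capitals mark GAAA, any 2 bases and GAAA again, or the same on the other strand (TTTC, any 2 bases, TTTC), with overlapping matches counted.
IFI27 (chr14:94110486-94110785): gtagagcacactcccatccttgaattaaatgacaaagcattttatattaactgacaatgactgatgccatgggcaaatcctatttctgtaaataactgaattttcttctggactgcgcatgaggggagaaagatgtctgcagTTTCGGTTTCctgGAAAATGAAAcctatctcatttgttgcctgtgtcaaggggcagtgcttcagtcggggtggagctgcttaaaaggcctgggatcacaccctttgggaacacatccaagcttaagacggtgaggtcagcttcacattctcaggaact
IFIT1 (chr10:89392373-89392672): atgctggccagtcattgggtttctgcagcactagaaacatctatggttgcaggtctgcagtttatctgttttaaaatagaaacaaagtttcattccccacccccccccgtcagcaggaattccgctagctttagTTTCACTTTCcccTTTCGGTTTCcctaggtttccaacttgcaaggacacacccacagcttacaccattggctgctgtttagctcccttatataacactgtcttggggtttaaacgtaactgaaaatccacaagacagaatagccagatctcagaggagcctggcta
IFI44L (chr1:78620198-78620497): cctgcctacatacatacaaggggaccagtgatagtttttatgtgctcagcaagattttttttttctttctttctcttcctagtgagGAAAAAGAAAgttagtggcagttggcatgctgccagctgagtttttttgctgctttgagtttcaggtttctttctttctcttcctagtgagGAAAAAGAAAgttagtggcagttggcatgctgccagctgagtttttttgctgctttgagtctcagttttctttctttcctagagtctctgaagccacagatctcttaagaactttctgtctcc
IFI44 (chr1:78649539-78649838): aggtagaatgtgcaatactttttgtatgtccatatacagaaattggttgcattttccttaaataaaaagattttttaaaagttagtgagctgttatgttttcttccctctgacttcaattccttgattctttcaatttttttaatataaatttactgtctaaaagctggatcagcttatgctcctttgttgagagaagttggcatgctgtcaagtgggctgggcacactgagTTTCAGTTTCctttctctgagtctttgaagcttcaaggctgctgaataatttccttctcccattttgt
RSAD2 (chr2:6865635-6865934): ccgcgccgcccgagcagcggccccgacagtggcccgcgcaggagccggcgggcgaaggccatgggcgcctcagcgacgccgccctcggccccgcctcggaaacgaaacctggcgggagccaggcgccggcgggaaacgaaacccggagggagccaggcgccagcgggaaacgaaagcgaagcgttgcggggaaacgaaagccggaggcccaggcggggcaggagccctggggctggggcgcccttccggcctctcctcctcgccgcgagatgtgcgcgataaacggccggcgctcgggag
ISG15 (chr1:1013247-1013546): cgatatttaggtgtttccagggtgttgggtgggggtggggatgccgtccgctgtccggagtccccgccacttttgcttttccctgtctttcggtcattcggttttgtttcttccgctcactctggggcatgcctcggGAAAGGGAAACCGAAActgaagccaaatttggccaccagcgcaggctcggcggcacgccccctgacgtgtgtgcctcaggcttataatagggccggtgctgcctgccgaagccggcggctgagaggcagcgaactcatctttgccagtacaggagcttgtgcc

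The windows of IFI27, IFIT1, IFI44L and ISG15 hold 2 matches each, IFI44 holds 1, and RSAD2 holds 0 in this window. Only 1 window per gene was read. Other starts that a gene may have, RSAD2 included, were not searched. The RSAD2 window does hold GAAA blocks paired with 1 base between them, a spacing that the marked pattern leaves out. In IFI44L both matches sit in 2 copies of one longer repeat, and in ISG15 they overlap. Over the whole table, 996 of 27305 promoters hold a match (3.65%). The table includes genes that the arrays did not test. Shares and CG medians over the tested genes alone were not computed, so the table is an unlike background for called genes. Among called interferon-list genes with a promoter entry 11 of 16 hold one, namely IFI27, IFI44, IFI44L, IFIT1, IFITM1, ISG15, ISG20, BST2, LGALS3BP, GBP1 and TNFSF10. Over the whole interferon list, called or not, 25 of 40 hold one (62.5%), and the share was not tested between called and other members. Among all genes called higher it was 18 of 155 (11.6%), among those outside the interferon list 7 of 139 (5.04%), and among genes called lower 6 of 227 (2.64%). The letters TTCNNNGAA, the core that STAT dimers recognise, are in 7.88% of all promoters, in 4 of the 16 called interferon-list promoters (25%), in 20% of those of the whole list and in 6.45% of those of all higher genes. These windows also differ in CG dinucleotides. The median over the 16 is 4 and over the whole list 8. It is 14 over the table, 24 over all higher and 27 over all lower genes. The RSAD2 window shown has 45. A match in the letters is a description and not a binding site.

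IFIT1, whose protein binds foreign RNA ends and blocks their translation, read 9.61 and 9.48 in Daudi, 5.40 and 5.39 in Namalwa and 5.73 and 4.85 in Raji. The groups did not overlap, and the differences were 4.15 ± 0.26 and 4.26 ± 0.26 (adjusted p = 0.000293 and 0.000223). RSAD2, which encodes viperin, an enzyme that makes a chain-terminating nucleotide, read 7.55 and 7.71 in Daudi, 4.87 and 4.91 in Namalwa and 5.10 and 4.76 in Raji. Both other lines were at the dim end for RSAD2, and the differences were 2.74 ± 0.15 and 2.70 ± 0.15 (adjusted p = 0.000169 and 0.000127). The neighbouring genes IFI44L and IFI44 were higher as well. IFI44L read 10.96 and 10.38 in Daudi, 6.88 and 7.53 in Namalwa and 8.37 and 5.90 in Raji, with differences of 3.46 ± 0.72 and 3.53 ± 0.72. The 2 Raji arrays lay far apart for IFI44L, on both sides of the Namalwa arrays. IFI44 read 10.01 and 10.05 in Daudi, 6.34 and 6.92 in Namalwa and 6.72 and 5.26 in Raji, with differences of 3.40 ± 0.44 and 4.04 ± 0.44. The other IFI44 probe set was not called (0.41 and 0.57).

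ISG15, a ubiquitin-like modifier, read 12.19 and 11.84 in Daudi, 9.25 and 9.44 in Namalwa and 9.96 and 8.36 in Raji, and differed by 2.67 ± 0.46 and 2.86 ± 0.46 (adjusted p = 0.0153 and 0.00995). Daudi was above all 4 other arrays, and the Raji arrays lay on both sides of the Namalwa arrays. USP18, the protease that removes ISG15 and dampens the interferon receptor, read 8.49 and 8.29 in Daudi, 6.31 and 6.25 in Namalwa and 5.70 and 6.08 in Raji (differences 2.12 ± 0.16 and 2.51 ± 0.16). UBE2L6, the conjugating enzyme for ISG15, read 10.82 and 10.82 in Daudi and 10.33 and 9.72 in Raji and differed by 1.83 ± 0.20 from Namalwa, and its difference from Raji of 0.80 passed narrowly at an adjusted p of 0.0499. No UBE2L6 value of another line reached the Daudi arrays. HERC5, a ligase for ISG15 in the same list, passed against neither line (0.24 and 0.15, adjusted p = 0.474 and 0.675).

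Antiviral effectors of other kinds were higher too. ISG20, an exonuclease, read 11.93 and 11.78 in Daudi, 9.41 and 9.41 in Namalwa and 10.01 and 10.13 in Raji (2.45 ± 0.12 and 1.79 ± 0.12). IFITM1, a membrane protein that hinders virus entry, differed by 2.57 ± 0.29 and 2.32 ± 0.29, and TRIM22, a ubiquitin ligase, by 1.69 ± 0.19 and 1.73 ± 0.19. For these 3 genes both Daudi arrays were above the other 4. MX2, a GTPase that blocks retroviruses, differed by 1.23 and 1.96, BST2, which tethers budding virus, by 1.75 and 1.19, and GBP1, a guanylate-binding protein, by 1.39 and 1.26. OAS1 and OAS2, which make the oligoadenylates that activate RNase L, differed by 1.49 and 1.34 from Namalwa and by 2.60 and 2.38 from Raji. The other OAS1 probe set was not called. In the fit of single probe sets neither OAS2 probe set was called (limma adjusted p = 0.059 and 0.127 against Namalwa). RIGI, a sensor of viral RNA, read 6.37 and 6.29 in Daudi, 5.18 and 5.05 in Namalwa and 5.26 and 5.11 in Raji, a small but even difference of 1.22 ± 0.12 and 1.15 ± 0.12. LGALS3BP, a secreted glycoprotein that binds galectins, stood 3.46 above Namalwa and 1.46 above Raji. TNFSF10, the death ligand TRAIL, read 7.31 and 6.98 in Daudi, 5.38 and 5.57 in Namalwa and 5.44 and 4.82 in Raji (1.67 ± 0.22 and 2.01 ± 0.22). XAF1, an antagonist of the apoptosis inhibitor XIAP, made the smallest call of the list (0.78 and 0.69). PLSCR1, an interferon-induced phospholipid scramblase outside the list, was higher by 1.84 ± 0.24 and 1.77 ± 0.24.

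**Figure D2:**
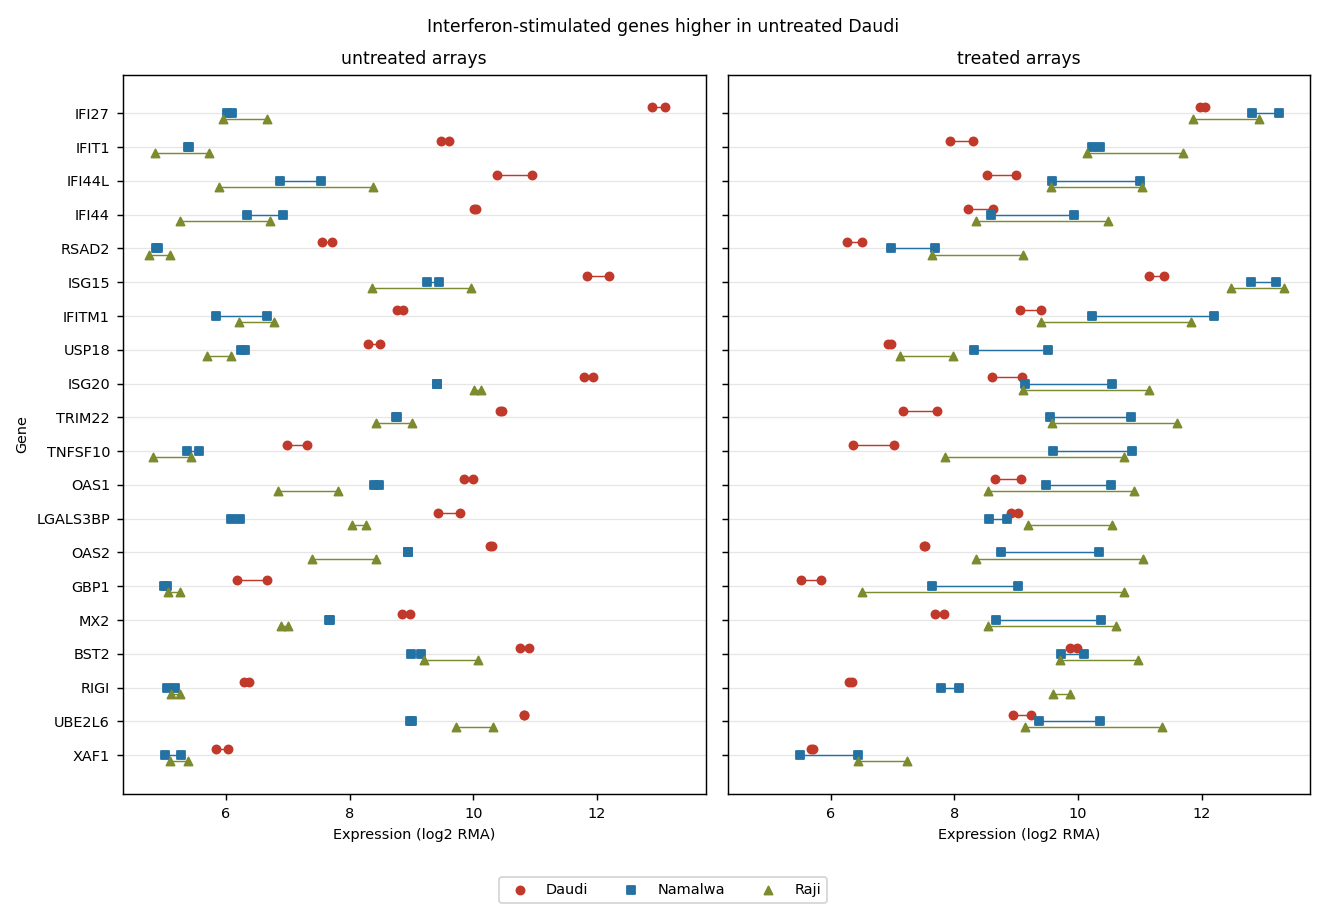
Expression (log2 RMA, x axis) of the 20 interferon-list genes called higher in untreated Daudi, 1 symbol per array, with lines joining the 2 arrays of a line, on untreated arrays (left) and treated arrays (right). On the left both Daudi arrays lie right of all 4 others for each gene; on the right the Daudi arrays lie among or left of the others.

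The other 31 measured members of the interferon list did not pass against both lines, and some ran the other way. MX1, a GTPase related to MX2, read 6.20 and 6.46 in Daudi and 6.39 and 6.25 in Raji. Daudi was thus at the level of Raji for MX1 (95% interval of the difference -0.37 to 0.39) and -2.84 from Namalwa (adjusted p = 0.000192). IFITM2 lay between the lines, -0.92 from Namalwa and 1.20 from Raji. IRF7, the transcription factor that amplifies interferon production, read 5.99 and 6.01 in Daudi, 7.03 and 7.04 in Namalwa and 7.54 and 6.58 in Raji, with differences of -1.04 and -1.06 that missed the threshold (adjusted p = 0.0704 and 0.0617). OAS3 differed by 0.00 and 0.06, with 95% intervals of -0.38 to 0.38 and -0.32 to 0.43. IFIT3 read 9.03 and 9.03 in Daudi, 7.56 and 7.66 in Namalwa and 8.51 and 7.10 in Raji and missed the threshold against both (adjusted p = 0.077 and 0.115). IFIT2 passed against Namalwa (0.91, adjusted p = 0.0216) and not against Raji (0.62, 0.0746), as did IFI6 (1.38, 0.0451, and 1.10, 0.0867).

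Of 30 measured genes of the interferon receptors and the JAK-STAT pathway, 1 was higher and 2 were lower in Daudi than in both lines. Over all genes 1.6% were higher and 2.2% lower. The list's medians were 0.02 and 0.00. IFNAR1 differed by 0.23 and 0.26 (95% intervals -0.05 to 0.50 and -0.01 to 0.53), and IFNAR2 by -0.74 and -0.50 (adjusted p = 0.0611 and 0.176). The kinases JAK1 and TYK2 and the factor IRF9 did not pass against either line, with differences of 0.13 and 0.19, 0.71 and 0.27, and 0.35 and 0.83. IL4R, a chain of the interleukin-4 receptor, was the gene that was higher (0.87 ± 0.17 and 1.01 ± 0.17). STAT3 and PIAS3, a protein that binds and inhibits STAT3, were lower by similar amounts: STAT3 differed by -0.67 ± 0.13 and -0.67 ± 0.13 and PIAS3 by -0.77 ± 0.12 and -0.77 ± 0.12. The other STAT3 probe set was not called (-0.53 and -0.32). Of the 20 interferon-list calls, 9 were kept whichever array was left out. Without Daudi replicate 1 or 2, or Namalwa replicate 1 or 2, 10, 11, 10 and 12 of the 20 were kept, and without Raji replicate 1 or 2, 20 and 18. IFI44L, IFI44 and ISG15 were among those lost without either Daudi array. Of the 3 receptor and JAK-STAT calls, 1, 0, 0 and 0 were kept without those Daudi and Namalwa arrays, and 3 without either Raji array.

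Outside the interferon list the largest excess belonged to CSTA, which encodes cystatin A, an inhibitor of cysteine proteases best known from skin. It read 10.28 and 10.19 in Daudi, 4.90 and 5.14 in Namalwa and 5.62 and 5.35 in Raji. The Daudi arrays were at a high level and the other 4 near the dim end, a difference of 5.22 ± 0.15 and 4.75 ± 0.15 (adjusted p = 1.24e-05 and 3.91e-05). GATM, which catalyses the first step of creatine synthesis, read 9.46 and 9.63 in Daudi, 6.36 and 6.26 in Namalwa and 6.35 and 6.20 in Raji. The GATM values of Namalwa and Raji were interleaved, and Daudi stood 3.24 ± 0.13 and 3.27 ± 0.13 above them (adjusted p = 4.08e-05 and 6.19e-05). SELENOP, the plasma protein that carries selenium, read 7.40 and 6.81 in Daudi, 4.37 and 4.36 in Namalwa and 4.37 and 4.39 in Raji, so the 4 other arrays were almost equal and Daudi was 2.74 ± 0.19 and 2.72 ± 0.19 higher.

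ENO2, the enolase of neurons, read 8.91 and 8.78 in Daudi, 6.18 and 5.82 in Namalwa and 5.62 and 5.88 in Raji (2.85 ± 0.17 and 3.10 ± 0.17). XK, the membrane protein that carries the Kx blood group antigen, read 8.06 and 7.71 in Daudi, 5.15 and 4.88 in Namalwa and 4.45 and 4.71 in Raji (2.87 ± 0.18 and 3.31 ± 0.18). For neither gene did an array of another line come near the Daudi arrays. PLXNC1, a plexin that binds semaphorin 7A, read 8.68 and 8.52 in Daudi and 5.92 to 6.00 on the other 4 arrays (2.62 ± 0.12 and 2.64 ± 0.12), and 1 of its 2 other probe sets was called the same way. ZNF804A, a zinc-finger protein gene, read 9.18 and 8.86 in Daudi, 5.32 and 5.54 in Namalwa and 6.80 and 5.90 in Raji (3.59 ± 0.29 and 2.67 ± 0.29). CRIP1, a small LIM-domain protein, read 10.98 and 10.42 in Daudi, 6.45 and 6.02 in Namalwa and 7.54 and 8.73 in Raji. Here the 3 lines were all apart, with Daudi highest by 4.46 ± 0.39 and 2.56 ± 0.39 and Namalwa lowest, at -1.90 relative to Raji. ANKRD36, an ankyrin-repeat gene, read 7.11 and 7.76 in Daudi, 4.82 and 4.69 in Namalwa and 4.56 and 5.34 in Raji (2.68 ± 0.30 and 2.48 ± 0.30); it belongs to a family of near-identical copies, which its probes may not separate. Of these 9 genes, CRIP1 lost its call without Daudi replicate 1 and without replicate 2, and the other 8 kept theirs without any single array.

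**Figure D3:**
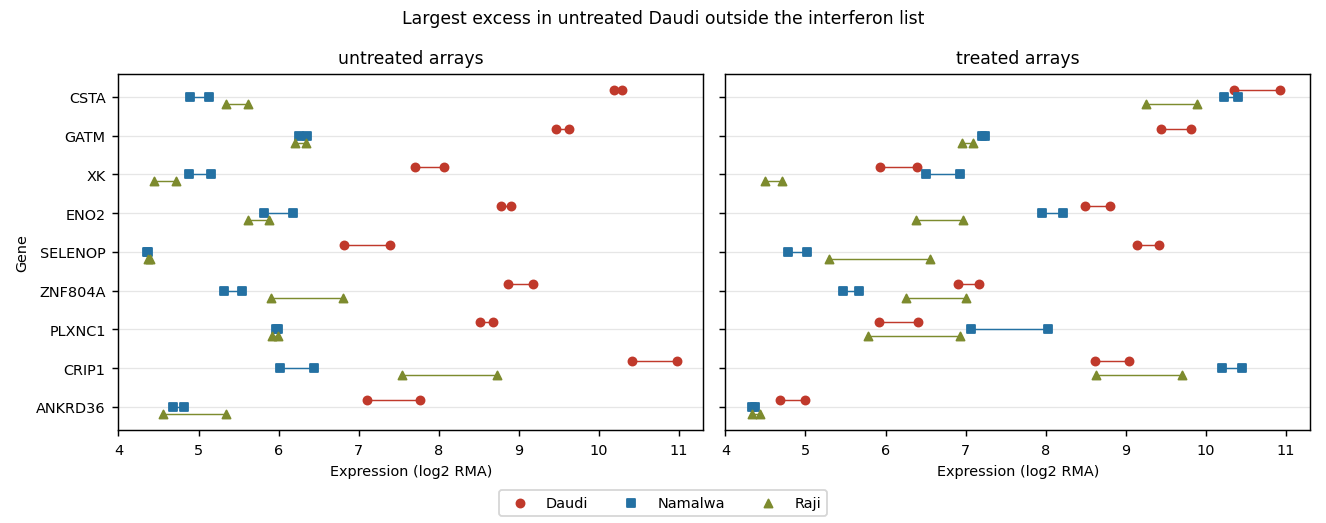
Expression (log2 RMA, x axis) of the 9 genes outside the interferon list among the 15 with the largest excess in untreated Daudi, 1 symbol per array, untreated (left) and treated (right). On treated arrays the other lines read higher for CSTA and ENO2 than on untreated arrays, close to Daudi for CSTA, and a gap remains for GATM and SELENOP.

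The deficits of Daudi were led by genes of varied function. UCHL1, a deubiquitinating enzyme abundant in neurons and germinal centre B cells, read 6.72 and 8.15 in Daudi, 11.90 and 12.03 in Namalwa and 11.73 and 11.27 in Raji. The Daudi arrays differed widely from each other and were still far below the other 4, with differences of -4.53 ± 0.42 and -4.06 ± 0.42, which is 23.1-fold and 16.7-fold lower (adjusted p = 0.00151 and 0.00181). DDX3X, an X-linked RNA helicase that acts in translation, read 6.36 and 5.89 in Daudi, 10.13 and 10.03 in Namalwa and 10.26 and 10.24 in Raji (-3.96 ± 0.17 and -4.12 ± 0.17, adjusted p = 5.99e-05 and 6.19e-05). The other 4 arrays lay close together for DDX3X, and of its 4 other probe sets 2 were called lower in the same way. SLC38A2, a sodium-coupled transporter of neutral amino acids, read 5.99 and 6.36 in Daudi, 9.87 and 9.73 in Namalwa and 9.78 and 10.56 in Raji (-3.63 ± 0.26 and -4.00 ± 0.26).

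PHGDH, the enzyme that opens serine synthesis, read 6.37 and 6.57 in Daudi, 9.66 and 9.91 in Namalwa and 9.42 and 10.48 in Raji (-3.32 ± 0.32 and -3.48 ± 0.32). ECI2, an isomerase of unsaturated fatty acid breakdown, read 5.89 and 5.62 in Daudi, 9.17 and 9.06 in Namalwa and 9.54 and 9.95 in Raji (-3.35 ± 0.17 and -3.99 ± 0.17). For both enzymes the Daudi arrays were well below every other array. ALDH9A1, an aldehyde dehydrogenase, was lower, at -2.82 ± 0.18 and -2.79 ± 0.18, ESD, an esterase, at -4.20 ± 0.15 and -2.99 ± 0.15, and GPX1, the peroxidase that uses glutathione to remove hydrogen peroxide, at -3.03 ± 0.36 and -3.18 ± 0.36. GPX1 read 5.27 and 5.44 in Daudi, 8.29 and 8.47 in Namalwa and 9.15 and 7.90 in Raji, so its groups did not overlap, and its call was lost without Daudi replicate 1 and without replicate 2. 

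SDCBP, which encodes the adaptor syntenin, read 5.70 and 5.52 in Daudi, 9.13 and 9.13 in Namalwa and 8.96 and 10.09 in Raji (-3.52 ± 0.33 and -3.91 ± 0.33). BASP1, a membrane-bound signalling protein, read 7.23 and 7.17 in Daudi, 10.40 and 10.54 in Namalwa and 11.35 and 11.25 in Raji (-3.27 ± 0.12 and -4.10 ± 0.12, adjusted p = 2.72e-05 and 3.41e-05). For BASP1 duplicates lay close together and all 3 lines were separate, Raji being highest. SPTBN1, a spectrin of the membrane skeleton, was lower, at -3.00 ± 0.17 and -3.14 ± 0.17, with 1 of 5 other probe sets called the same way, and VAMP8, a SNARE protein of late endosomes, at -2.87 ± 0.12 and -3.02 ± 0.12. PEG10, an imprinted gene derived from a retrotransposon, read 5.66 and 5.69 in Daudi, 10.31 and 10.29 in Namalwa and 9.14 and 8.81 in Raji (-4.63 ± 0.14 and -3.30 ± 0.14). SGCE, its imprinted neighbour, was lower, at -1.04 ± 0.21 and -0.91 ± 0.21 (adjusted p = 0.0265 and 0.0391), and these were the 2 of 21 measured imprinted genes that passed, with none higher. PEG10 was called in all 6 fits that left out an array, and SGCE lost its call without either Daudi array, Namalwa replicate 2 or Raji replicate 2.

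RGS13, a regulator of G-protein signalling of germinal centre B cells, read 5.64 and 5.09 in Daudi, 8.69 and 8.62 in Namalwa and 9.58 and 10.48 in Raji (-3.29 ± 0.30 and -4.66 ± 0.30). It was one of 34 measured regulators of G proteins, of which 1 was lower and 0 higher, where 2.2% and 1.6% of all genes were. TRBC1, a constant segment of the T-cell receptor beta chain, read 6.00 and 6.15 in Daudi, 10.13 and 10.15 in Namalwa and 8.52 and 9.84 in Raji (-4.07 ± 0.38 and -3.11 ± 0.38). TRBC1 is nearly identical to TRBC2, so its probes may read both, and its call was lost without Daudi replicate 1. The T-cell genes CD3D, CD3E and CD2 gave no like pattern: CD3E read 7.87 and 7.82 in Daudi, 7.57 and 7.73 in Namalwa and 7.52 and 7.76 in Raji, and CD3D and CD2 differed by at most 0.13 in size from either line. Of 15 T-cell markers, TRBC1 alone was called.

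**Figure D4:**
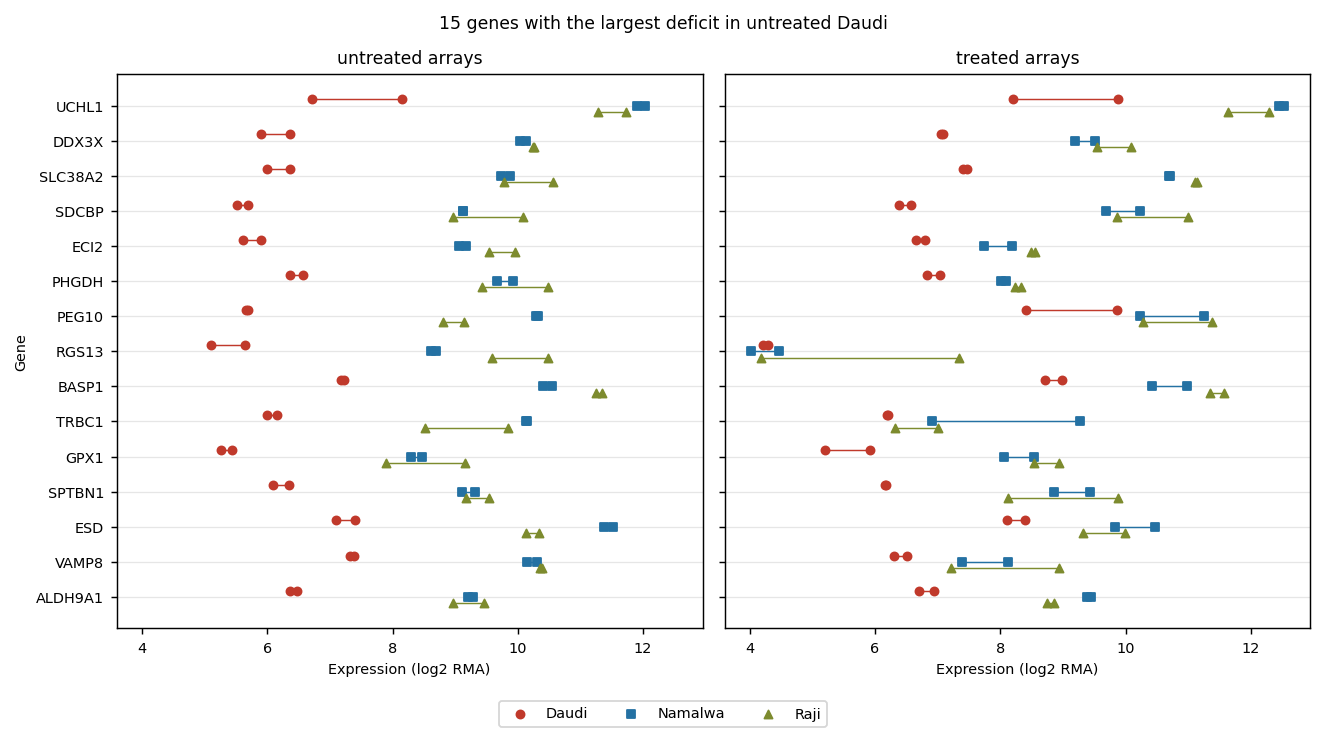
Expression (log2 RMA, x axis) of the 15 genes with the largest deficit in untreated Daudi, 1 symbol per array, untreated (left) and treated (right). On the left both Daudi arrays lie left of the other 4 for every gene, and on the right this holds for all but RGS13, where Daudi lies among the others.

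Of 54 measured host genes that EBNA2 and LMP1 are known to induce, 10 were lower in Daudi than in both lines, 0 were higher and 44 did not pass against both. Over all genes 2.2% were lower and 1.6% higher. The list's medians were -0.35 against Namalwa and -1.14 against Raji. Singly, 11 members were lower against Namalwa and 29 against Raji, and 25 were lower in Namalwa than in Raji. With all 22 arrays in the fit, 6 members were lower than in both lines. CCR7, a chemokine receptor of activated B cells, read 5.80 and 5.84 in Daudi, 7.41 and 7.27 in Namalwa and 11.26 and 10.66 in Raji. The lines formed 3 steps, with Daudi -1.51 ± 0.20 from Namalwa and -5.13 ± 0.20 from Raji (adjusted p = 0.00623 and 6.19e-05), and Namalwa itself -3.62 from Raji. BCL2A1, an anti-apoptotic BCL2 relative, read 4.84 and 4.80 in Daudi, 6.68 and 6.35 in Namalwa and 8.73 and 7.79 in Raji (-1.69 ± 0.29 and -3.44 ± 0.29). SLAMF1, a lymphocyte signalling receptor, read 5.42 and 6.13 in Daudi, 7.67 and 7.81 in Namalwa and 9.75 and 9.25 in Raji (-1.97 ± 0.26 and -3.73 ± 0.26). Both followed the order Daudi, Namalwa, Raji.

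CR2, the complement receptor through which the virus enters, read 7.90 and 7.85 in Daudi, 9.01 and 9.15 in Namalwa and 9.81 and 10.28 in Raji (-1.21 ± 0.17 and -2.17 ± 0.17). TNFAIP3, the inhibitor A20 of NF-kB signalling, read 7.44 and 7.61 in Daudi, 8.48 and 8.32 in Namalwa and 10.57 and 10.60 in Raji (-0.88 ± 0.13 and -3.06 ± 0.13). Duplicates of TNFAIP3 lay close together, and its gap to Raji was wider than its gap to Namalwa. CCL4, a chemokine of activated B cells, had the reverse order, with 7.23 and 7.43 in Daudi, 9.96 and 10.10 in Namalwa and 8.03 and 8.44 in Raji (-2.70 ± 0.17 and -0.91 ± 0.17). CD83, a maturation marker, was lower, at -0.66 and -1.48, DUSP2, a MAP-kinase phosphatase, at -0.63 and -1.55, and GPR183, an oxysterol receptor that guides B-cell migration, at -0.94 and -0.99. CFLAR, which blocks caspase-8 activation, was lower, at -0.95 ± 0.14 and -1.25 ± 0.14, although only 1 of its 10 other probe sets was called the same way. None of these 10 calls was kept in all 6 fits that left out an array: without Daudi replicate 1 or 2, or Namalwa replicate 1 or 2, 1 or 2 were kept, and without either Raji array all 10 were.

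Several of the best-known members passed against Raji only. FAS, the death receptor, read 5.77 and 5.75 in Daudi, 6.04 and 6.20 in Namalwa and 9.35 and 9.79 in Raji, a difference of -3.81 from Raji (adjusted p = 6.78e-05) and -0.36 from Namalwa (0.294). EBI3, a cytokine subunit named for its induction by the virus, differed by -2.89 from Raji (adjusted p = 0.0135) and -0.40 from Namalwa (0.755). TRAF1, a TNF-receptor adaptor, differed by -2.21 from Raji (adjusted p = 0.00747) and -0.34 from Namalwa (0.667), CD58, the ligand of CD2, by -2.99 and -0.78, and NFKBIA, the inhibitor of NF-kB, by -2.38 and -0.55. For these 5 genes the difference from Namalwa did not pass, and Raji was higher than Daudi and Namalwa alike. FCER2, or CD23, a classic EBNA2 target, passed against neither line (-0.28 and 0.04, 95% intervals -0.78 to 0.22 and -0.46 to 0.54), and CD44 likewise (-0.15 and 0.05, intervals -0.50 to 0.20 and -0.30 to 0.40). CD40, the costimulatory receptor, was lower than in Raji (-0.78, adjusted p = 0.0401) and differed by -0.06 from Namalwa (0.909). ICAM1 passed against neither line (0.40 and -0.45). Of 34 genes of NF-kB subunits, inhibitors and targets, 5 were lower than in both lines, all of them members of the list above, and 0 were higher. Singly, 5 of the 34 were lower and 1 higher than in Namalwa, and 15 lower and 1 higher than in Raji. In Namalwa 14 were lower and 1 higher than in Raji. NFKB2 read 7.12 and 6.52 in Daudi, 8.10 and 7.46 in Namalwa and 9.56 and 7.62 in Raji, with the Raji arrays far apart, and did not pass (-0.96 and -1.77).

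MHC class II genes present antigen to CD4 T cells. Of 16 measured members with CIITA, 4 were lower than in both lines and 0 were higher, where 2.2% and 1.6% of all genes were. The list's medians were -0.36 and -0.82. Singly, 4 members were lower and 1 higher than in Namalwa, and 9 lower and 0 higher than in Raji. In Namalwa 8 were lower and 0 higher than in Raji. HLA-DPB1 read 9.07 and 9.09 in Daudi, 10.11 and 10.18 in Namalwa and 12.27 and 12.26 in Raji (-1.07 ± 0.11 and -3.19 ± 0.11). Its duplicates lay close together, and the lines stood in 3 steps with Daudi lowest. HLA-DQA1 was lower, at -1.38 ± 0.18 and -2.81 ± 0.18, HLA-DQB1 at -0.56 ± 0.12 and -2.26 ± 0.12 and HLA-DRA at -0.76 ± 0.17 and -1.71 ± 0.17. Against Namalwa these calls depend on the probe set: the second probe set of HLA-DQA1 differed by -0.05 from Namalwa and by -4.92 from Raji, and 1 of 6 other probe sets of HLA-DQB1 was called the same way. In the fit of single probe sets neither HLA-DRA probe set was called. They differed by -0.76 and -0.85 from Namalwa (limma adjusted p = 0.0561 and 0.111). HLA probes can be specific to alleles, and the part of allele differences between the lines was not tested. HLA-DPB1 kept its call without any single array, and the other 3 lost theirs without either Daudi array. CIITA, the master regulator of the class, differed by -0.04 and 0.04 (95% intervals -0.33 to 0.26 and -0.26 to 0.33). CD74, the invariant chain, was lower than in Raji (-0.96, adjusted p = 0.00769) and differed by -0.44 from Namalwa (0.126), and HLA-DMA and HLA-DMB differed by -1.15 and -1.53 from Raji and by 0.38 and 0.02 from Namalwa.

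**Figure D5:**
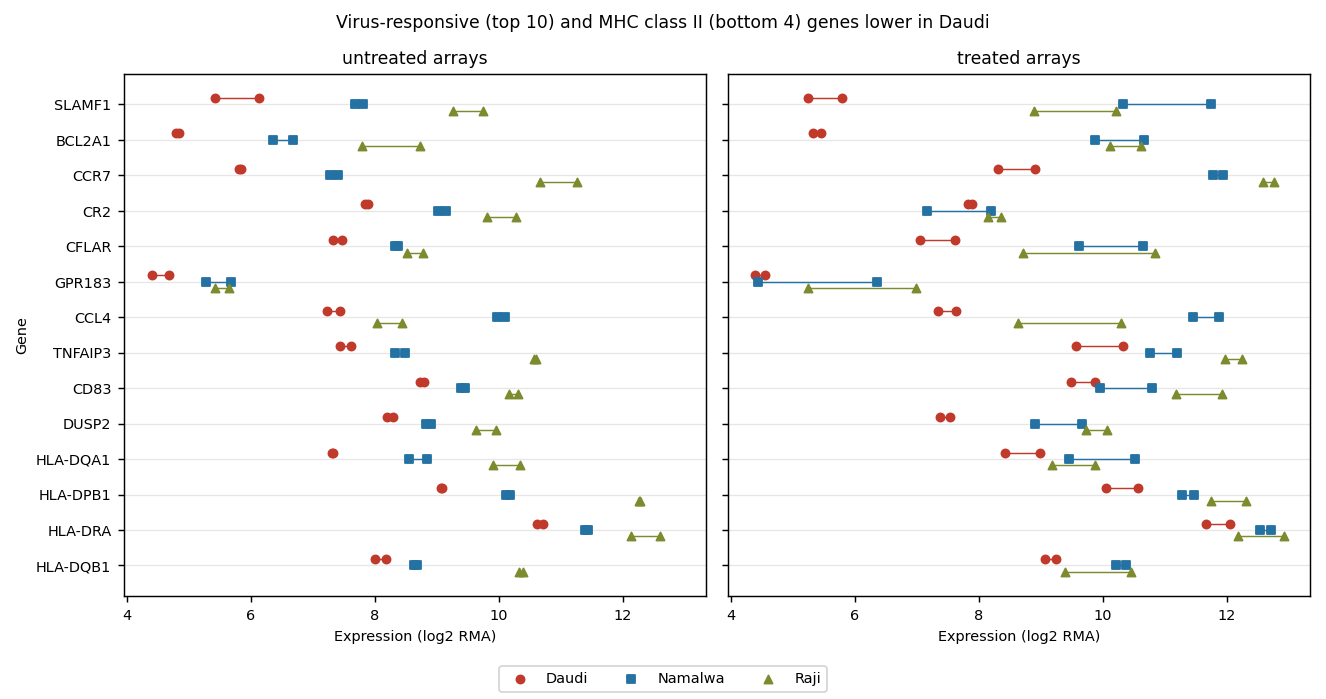
Expression (log2 RMA, x axis) of the 10 EBNA2 and LMP1 host targets (top) and the 4 MHC class II genes (bottom) called lower in untreated Daudi, 1 symbol per array, untreated (left) and treated (right). On the left both Daudi arrays lie left of the other 4 for each gene, and Raji lies farthest right for all but CCL4, with GPR183 shared between Namalwa and Raji.

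B2M, the light chain of MHC class I whose protein Daudi is known to lack, read 12.32 and 12.21 in Daudi, 12.53 and 12.43 in Namalwa and 12.60 and 12.35 in Raji. Both Daudi arrays lay just below the other 4, and the 95% intervals of the differences were -0.54 to 0.10 and -0.53 to 0.11. HLA-B and HLA-C transcripts were at the top of the scale in all lines, and Daudi differed by 0.28 and 0.17 for HLA-B and 0.07 and 0.03 for HLA-C, without passing the test. HLA-E was higher than in Namalwa (1.14, adjusted p = 0.0256) and level with Raji (0.03, 95% interval -0.51 to 0.57). The medians of 26 measured genes of class I presentation were 0.20 and 0.04. Of these 26, 1 was higher than in both lines and 0 were lower, where 1.6% and 2.2% of all genes were. That gene was CALR, the chaperone calreticulin, at 11.82 and 11.76 in Daudi, 10.50 and 10.62 in Namalwa and 10.82 and 10.47 in Raji (1.23 ± 0.15 and 1.15 ± 0.15). The interferon-inducible peptide transporter genes TAP1 and TAP2 differed by 0.64 and 0.70 from Namalwa (adjusted p = 0.0704 and 0.0499) and by -0.17 and -0.21 from Raji. The immunoproteasome subunits PSMB8 and PSMB9 differed by 0.56 and 1.10 from Namalwa and by 0.58 and 0.29 from Raji, each passing against 1 line only.

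Of 36 measured genes of the B-cell receptor and its signalling, 3 were higher and 7 lower than in both lines, with medians of -0.42 and -0.23. Over all genes 1.6% were higher and 2.2% lower. LYN, the kinase that starts and restrains receptor signalling, read 8.13 and 7.80 in Daudi, 9.91 and 9.24 in Namalwa and 9.68 and 9.92 in Raji (-1.61 ± 0.24 and -1.83 ± 0.24), and 1 of its 2 other probe sets was called the same way. BANK1, an adaptor that binds LYN, read 5.15 and 5.10 in Daudi, 7.76 and 7.02 in Namalwa and 6.72 and 8.02 in Raji (-2.27 ± 0.42 and -2.25 ± 0.42). Daudi was below every other array for both. PIK3CD, the PI3-kinase subunit of lymphocytes, was lower, at -1.12 ± 0.12 and -2.16 ± 0.12, and PRKCB, which relays to NF-kB, at -0.75 and -0.88. The inhibitory phosphatase INPP5D was lower, at -0.67 and -1.16, and the adaptor LAT2 at -1.38 and -0.64. The other probe set of PIK3CD, of INPP5D and of LAT2 was not called, and that of LAT2 differed by 0.14 and -0.13. PTPRCAP, which associates with CD45, was higher by 1.28 and 1.03, and the exchange factor VAV1 by 0.65 and 0.61. The receptor's own subunits CD79A and CD79B and the kinases SYK and BTK did not pass: CD79A differed by 0.29 and 0.44, CD79B by -0.26 and -0.36, SYK by -0.24 and 0.39 and BTK by 0.49 and 0.16. PIK3CD alone among the 10 kept its call in all 6 fits that left out an array; 1 to 3 of the 10 were kept without a Daudi or Namalwa array and 9 or 10 without a Raji array.

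IGHM, the heavy chain of IgM, was called higher by its brightest probe set, at 13.22 and 13.14 in Daudi, 12.25 and 12.51 in Namalwa and 12.36 and 12.07 in Raji (0.80 ± 0.15 and 0.97 ± 0.15). Its 4 other probe sets ran from -3.49 to 1.34, 1 of them called higher and 1 called lower in Daudi than in both lines. With all probe sets averaged the differences reversed to -0.85 and -0.12, so no direction holds for IGHM over its probe sets.

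Of 35 measured B-lineage transcription factors, 2 were higher and 3 lower in Daudi than in both lines, where 1.6% and 2.2% of all genes were. Singly, 2 were higher and 6 lower than in Namalwa, 5 were higher and 5 lower than in Raji, and 9 were higher and 2 lower in Namalwa than in Raji. XBP1, which drives secretion in plasma cells, read 10.22 and 10.13 in Daudi, 9.15 and 9.45 in Namalwa and 8.66 and 9.04 in Raji (0.88 ± 0.17 and 1.32 ± 0.17), and ID2, which sequesters E proteins, was higher by 1.33 ± 0.19 and 1.37 ± 0.19. MEF2C, a factor of B-cell survival, was lower, at -1.65 ± 0.21 and -1.99 ± 0.21, SPIB at -0.60 and -0.76, and POU2AF1, the coactivator of octamer factors, at -0.54 and -0.55. PAX5 differed by -0.74 and -0.08 (adjusted p = 0.096 and 0.9), and BCL6, the germinal centre repressor, by 0.06 and 0.71, with wide 95% intervals of -1.10 to 1.22 and -0.45 to 1.86. The Raji arrays read 8.77 and 10.53 for BCL6. MYC, the driver of the tumour, differed by 0.39 and -0.04 (intervals 0.00 to 0.79 and -0.44 to 0.36). IRF4, a regulator of B-cell activation and plasma cell fate, was lower than in Namalwa (-1.14, adjusted p = 0.00529) and differed by -0.13 from Raji (0.695). None of the 5 calls of this list was kept in all 6 fits that left out an array.

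Of 28 measured germinal centre genes 0 were higher and 2 lower, RGS13 and BIK, a pro-apoptotic BCL2 relative that read 7.98 and 7.70 in Daudi, 9.66 and 10.04 in Namalwa and 8.88 and 9.02 in Raji (-2.01 ± 0.17 and -1.11 ± 0.17). The surface markers MME, or CD10, and CD38 differed by 0.98 and 0.60 from Namalwa and by 1.35 and 1.04 from Raji and passed against neither. TCL1A, an oncogene of early and germinal centre B cells, was level with Namalwa (-0.18, 95% interval -0.52 to 0.15) and higher than Raji (2.35, adjusted p = 0.000194). VPREB3, a chaperone of receptor assembly among the B-cell markers, was higher than in both, at 10.74 and 10.76 in Daudi, 9.69 and 9.96 in Namalwa and 8.80 and 8.75 in Raji (0.92 ± 0.13 and 1.98 ± 0.13). The kinase LCK, known from T cells, was at 9.53 and 9.43 in Daudi and 8.93 and 9.03 in Namalwa against 6.92 and 7.49 in Raji, and so passed against Raji only (2.27, adjusted p = 0.000777). Of 22 plasma cell genes XBP1 was higher and POU2AF1 lower. The germinal centre and plasma cell counts stand against 1.6% of all genes higher and 2.2% lower.

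Among 51 chemokines, cytokines and receptors 2 were higher and 3 lower, and among 31 TNF ligands and receptors 2 were higher and 1 lower. For these lists and the BCL2 family below, the shares over all genes were 1.6% higher and 2.2% lower. CSF2RB, the shared beta chain of the receptors for GM-CSF, interleukin-3 and interleukin-5, read 9.04 and 9.21 in Daudi, 7.20 and 7.05 in Namalwa and 6.83 and 6.46 in Raji (2.00 ± 0.16 and 2.48 ± 0.16), and was called whichever array was left out. TNFRSF1A, the widely expressed TNF receptor, was higher at 0.55 and 0.90, and CD70, the ligand of CD27, was lower, at -0.73 and -2.28. Of 33 genes of the BCL2 family and caspases 4 were lower and 0 higher: BCL2A1, BIK and CFLAR, and CASP8, the initiator caspase of death receptors, at 5.96 and 6.01 in Daudi, 6.83 and 6.71 in Namalwa and 7.12 and 7.18 in Raji (-0.78 ± 0.12 and -1.16 ± 0.12). The other CASP8 probe set was not called (-0.35 and -0.34). The lower genes include inhibitors of apoptosis (BCL2A1, CFLAR) and promoters of it (BIK, CASP8). Without Daudi replicate 1 or 2, 1 and 0 of the 4 were kept, without Namalwa replicate 1 or 2, 1 and 1, and without either Raji array 4.

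Of 45 adhesion and migration genes 1 was higher and 3 were lower, where 1.6% and 2.2% of all genes were, and the medians were 0.01 and -0.06. ITGB1, the beta-1 integrin chain, read 10.57 and 10.61 in Daudi, 7.89 and 7.89 in Namalwa and 9.40 and 9.84 in Raji (2.70 ± 0.16 and 0.97 ± 0.16), while its 4 other probe sets were not called. ITGAV, an alpha integrin that pairs with it, was lower, at -1.27 ± 0.20 and -1.27 ± 0.20, ITGA6, the laminin-binding alpha chain, at -0.80 and -1.02, and ALCAM, the ligand of CD6, at -0.93 and -2.67. The other ITGA6 probe set was not called (-0.95 and -1.52). Of 41 genes of actin, galectins, S100 proteins and annexins 1 was higher and 5 were lower, with medians of 0.00 and -0.08. ANXA5, an annexin that binds phosphatidylserine, read 7.85 and 7.46 in Daudi, 9.27 and 9.15 in Namalwa and 9.07 and 9.11 in Raji (-1.55 ± 0.16 and -1.43 ± 0.16). ANXA11 and ANXA6, other calcium-dependent membrane binders, were lower, at -1.33 and -1.08 against Namalwa and at -1.80 and -1.68 against Raji. The other ANXA11 probe set was not called (-0.33 and -0.87). For the 3 annexins Daudi was below all other arrays. ARPC1B, a subunit of the actin nucleator Arp2/3, was lower, at -0.87 and -1.19, and TMSB4X, the actin-sequestering thymosin, at -1.01 and -0.78. MYO1E, a class I myosin, was the one higher, at 7.96 and 7.77 in Daudi, 5.94 and 6.19 in Namalwa and 6.19 and 6.35 in Raji (1.80 ± 0.14 and 1.59 ± 0.14). MYO1E and ANXA5 kept their calls without any single array, and the other 4 lost them without Daudi replicate 2.

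Of 49 genes of the MYC network and proliferation 1 was higher and 1 lower, where 1.6% and 2.2% of all genes were: MAX, the partner of MYC, by 0.89 ± 0.13 and 0.85 ± 0.13, with 0 of its 4 other probe sets called, and MCM3, a subunit of the replicative helicase, by -0.96 ± 0.12 and -0.95 ± 0.12. Of 32 CDK inhibitors and p53 targets 1 was lower, CDKN1B, the CDK inhibitor p27, at 4.47 and 4.68 in Daudi, 6.96 and 7.13 in Namalwa and 7.27 and 8.56 in Raji (-2.47 ± 0.37 and -3.34 ± 0.37). The Daudi arrays were at the dim end for CDKN1B and the Raji arrays far apart. CDKN1A, the inhibitor p21, passed against neither line (-0.31 and 0.01, 95% intervals -0.58 to -0.04 and -0.25 to 0.28). Of 46 enzymes of DNA methylation and histone modification 1 was higher and 1 lower. HDAC2, a histone deacetylase, was lower at 8.09 and 7.87 in Daudi, 9.57 and 9.81 in Namalwa and 9.25 and 9.52 in Raji (-1.71 ± 0.16 and -1.41 ± 0.16), and KAT2B, an acetyltransferase, was higher by 1.97 and 0.81, the latter at an adjusted p of 0.0487. HDAC2 kept its call in all 6 fits that left out an array, whereas CDKN1B was lost without any Daudi or Namalwa array and KAT2B without any array except Raji replicate 2. Of 42 metallothioneins and glutathione enzymes GPX1 was lower and PRDX4, a peroxiredoxin of the endoplasmic reticulum, was higher (1.01 ± 0.14 and 1.13 ± 0.14). Of 30 cancer-testis and germline genes TEX14, a gene of germ-cell bridges, was higher (1.29 ± 0.12 and 1.44 ± 0.12) and none was lower. Of 18 complement genes only CR2 passed, and CD55, which shields cells from complement, differed by -0.07 and -0.32 (95% intervals -1.18 to 1.04 and -1.42 to 0.79). The myeloid markers LYZ and FCN1 were higher by 1.35 ± 0.26 and 0.77 ± 0.12 against Namalwa and by 1.27 ± 0.26 and 0.68 ± 0.12 against Raji, from levels of 5.95 and 5.11 for LYZ and 6.17 and 6.32 for FCN1 in Daudi. The mean of the 11 myeloid markers was 5.94 and 5.98 on the Daudi arrays and 5.65 to 5.70 on the other 4, and its part in these calls was not tested; CD14, the defining monocyte marker, differed by 0.24 and 0.16 and did not pass.

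The 5 untreated DLBCL arrays show how far these levels were from other B-cell lymphoma lines. Of the 191 higher genes, 128 (67%) were higher on both Daudi arrays than on all 9 other untreated arrays, where 4.6% of all genes were. Of the 263 lower genes, 157 (59.7%) were lower on both Daudi arrays than on all 9 others, where 5.33% of all genes were. These arrays include the 4 that chose the genes, so the shares are a description. IFI27 on the DLBCL arrays ran from 5.37 to 6.38 and CSTA from 4.78 to 5.48, at the level of Namalwa and Raji, and DDX3X from 10.05 to 10.91, far above Daudi. GATM ran from 7.68 to 9.09, between Daudi and the other Burkitt lines, ENO2 from 5.74 to 10.45 and ZNF804A from 5.34 to 9.12, so that single DLBCL arrays reached Daudi for the last 2. UCHL1 ran from 6.72 to 11.41 and BASP1 from 6.40 to 12.16, down to the level of Daudi, and BCL2A1 from 4.65 to 5.51 and CCR7 from 5.44 to 6.37, close to Daudi and below Namalwa and Raji.

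On the treated arrays, which played no part in choosing the genes, 65 genes were higher in Daudi than in both lines (0.543% of genes) and 70 were lower (0.585%). With all 22 arrays in the fit these counts were 288 and 237, and the overlaps that follow rest on the 65 and the 70. Treated duplicates correlated at 0.988 in Daudi, 0.972 in Namalwa and 0.962 in Raji, against 0.991, 0.992 and 0.98 untreated. A gene not called on treated arrays is therefore not shown to have lost its difference. Of the 191 genes higher before treatment, 16 were also higher after it, which is 8.38% of the 191 and 24.6% of the 65. Of the 263 lower genes, 26 were also lower after treatment, which is 9.89% of the 263 and 37.1% of the 70. In sign alone, 120 of the 191 were above both lines on the treated arrays, against 42.4% of all genes, and 198 of the 263 were below both, against 31.8% of all genes. The 16 include GATM, SELENOP, COL6A3, RNASEH2A and TNNT1. The 26 include DDX3X, SLC38A2, SDCBP, ECI2, PHGDH, BASP1, GPX1, ALDH9A1, CCR7, BCL2A1, SLAMF1, DUSP2, HDAC2 and ITGAV. SLC38A2 kept its gap, at 7.40 and 7.47 in Daudi, 10.69 and 10.70 in Namalwa and 11.11 and 11.13 in Raji (-3.26 and -3.69, adjusted p = 0.00146 and 0.00227), and SELENOP stood at 9.41 and 9.14 in Daudi, 4.78 and 5.02 in Namalwa and 6.55 and 5.29 in Raji. BCL2A1 had 5.33 and 5.45 in Daudi, 9.86 and 10.66 in Namalwa and 10.62 and 10.11 in Raji, a wider gap than before treatment (interaction -2.36, adjusted p = 0.0269). The treated counts also moved with single arrays: without treated Daudi replicate 1 or 2 no gene was called (0 higher and 0 lower), without Namalwa replicate 1 or 2 0 were higher and 1 lower, and without Raji replicate 1 or 2 they were 59 and 126, and 27 and 52.

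On treated arrays the medians of the 51 interferon-stimulated genes were -1.37 against Namalwa and -1.47 against Raji, 0 members were higher in Daudi and 6 were lower. IFI27 read 12.05 and 11.97 in Daudi, 13.24 and 12.81 in Namalwa and 11.86 and 12.93 in Raji, so that all 3 lines were now high. IFIT1 read 7.93 and 8.30 in Daudi, 10.36 and 10.22 in Namalwa and 10.14 and 11.70 in Raji, with Daudi now lowest (-2.17 and -2.80, adjusted p = 0.0917 and 0.0613, not called). RIGI, alone among the 191 genes, was higher in Daudi before treatment and lower than both lines after it, at 6.30 and 6.34 in Daudi, 7.78 and 8.07 in Namalwa and 9.59 and 9.87 in Raji (-1.60 and -3.41, adjusted p = 0.0196 and 0.00936). The change in the Daudi difference was tested as an interaction over 12 arrays, and 276 genes passed (2.31%), 103 with a lower (0.861%) and 173 with a higher difference (1.45%) after treatment, or 114 and 118 with each array centred on its median. Without untreated Daudi replicate 1 or 2, 36 and 27 genes passed, without untreated Namalwa replicate 1 or 2, 50 and 62, without treated Daudi replicate 1 or 2, 80 and 24, and without treated Raji replicate 1 or 2, 508 and 475. The 276 include 20 genes of the interferon list, each with a lower difference after treatment, and 11 of these are among the 20 that were higher in untreated Daudi. Of the 191 genes 37 passed, 36 of them falling, and of the 263 genes 42 passed, 40 of them rising. Selection for a large untreated difference favours movement back towards 0 in this contrast, since it uses the same untreated arrays. The series text says that the scans of the treated Burkitt lines were published before, so treatment and array set cannot be told apart for these lines.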

How the data were processed

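Expression was measured in 22 samples of 6 lymphoma lines on Affymetrix arrays. The authors deposited log2 values from RMA, which corrects background, equalises the distributions of the arrays and summarises the probes of a set. The submitters' processing notes name RMA and R 2.10.1. RMA can understate differences of dim genes, and short probes may read near-identical genes or miss other alleles. No scan date or batch is given in the sources used here. Of 22283 probe sets, 68 controls were left out, and 19065 of the rest carried 1 gene symbol, 1043 several and 2107 none. Symbols were checked against RefSeq by Entrez ID, and 19053 matched. Each of 11963 genes was read by its brightest probe set over the 22 arrays.

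With limma (version 3.58.1, under R 4.3.3), lmFit and eBayes were run on group means of the 6 untreated arrays, and p-values were adjusted by Benjamini-Hochberg within each contrast. Named genes are the 15 highest and 15 lowest called genes by the smaller of the 2 differences, up to 4 called members of each of 28 lists, and 21 genes fixed by name, of which 2 are not reported here. Other list members, PLSCR1 and the X-linked genes were named after their values were seen. The members and lists were chosen with earlier results of these data known. The fits were tested on simulated data. Alternatives covered the arrays in the fit, the probe sets averaged, dim genes, array scaling, normalization, the variance prior, a size threshold, each array left out and the replicate number as a block. A fit of every named probe set on its own was added after seeing the data.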

Additional observations from a re-analysis of the deposited data

Results flagged for a closer look

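For 39 named genes the difference between Daudi and the mean of Namalwa and Raji changed with treatment, by limma's interaction test over 12 arrays (adjusted p under 0.05). The values are log2 changes of that difference, treated minus untreated, and their causes were not tested. Over all 11963 genes 276 passed this test (2.31%). Many of the named genes were picked for a large untreated difference. That choice favours movement back towards 0 here, since the test uses the same untreated arrays. Some genes were named only after their values were seen. Among the interferon-list genes that were higher in untreated Daudi, the difference fell for IFI27 (-7.52), IFIT1 (-6.69), TNFSF10 (-4.91), IFI44L (-5.03), TRIM22 (-4.66), IFI44 (-4.64), ISG15 (-4.44), RSAD2 (-4.2), RIGI (-3.69), USP18 (-3.59) and LGALS3BP (-2.77). It also fell for interferon-inducible genes not called before treatment, IFIT3 (-3.92), IFIT2 (-3), TAP1 (-2.85), IRF7 (-2.26) and OASL (-1.32), and for PLSCR1 (-2.86). Other genes higher in untreated Daudi whose difference fell were CRIP1 (-4.43), CSTA (-4.29), PLXNC1 (-3.42), XK (-2.58), ZNF804A (-2.19), ANKRD36 (-2.11) and ENO2 (-1.7). Genes lower in untreated Daudi whose deficit shrank were PHGDH (2.17), ECI2 (2.15), ESD (1.94), ARHGEF6 (1.88), DDX3X (1.52), CCDC22 (1.46), BASP1 (1.45), PRKCB (1.37), DYNLT3 (1.33) and PIAS3 (0.684). The deficit of BCL2A1 widened, with a change of -2.36, and the difference fell for 4 genes that were not called before treatment, ICAM1 (-1.62), CDKN1A (-1.5), CD40 (-1.14) and IRF4 (-0.968). Of these 4, all were lower in treated Daudi than in both treated lines. Treatment and the set of arrays cannot be told apart here, because the scans of the treated Burkitt lines come from an earlier publication.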

How the results depend on the processing

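Of the results for named genes under the alternatives, 4451 kept their direction and side of the threshold, 512 lost it, 95 gained it and 2 reversed, namely IGHM with its probe sets averaged (-0.85 from Namalwa and -0.12 from Raji). With all 22 arrays in the fit, 107 genes were higher and 147 lower, and 643 genes passed between Daudi and Namalwa, 878 between Namalwa and Raji, 10 in the interferon list, 6 in the EBNA2 and LMP1 list, and 288 and 237 on treated arrays. With a difference of at least 1 also required, the counts were 84 higher and 114 lower, 468 against Namalwa, 595 against Raji, 561 between Namalwa and Raji and 4 in the EBNA2 and LMP1 list. Cyclic loess left 42 genes higher on treated arrays. Averaging probe sets, leaving out dim genes, centring, quantile normalization, cyclic loess and the robust prior kept the untreated counts within 180 to 245 and 247 to 284. Leaving out 1 array moved the counts over ranges of 48 to 289 higher, 67 to 420 lower, 216 to 1862 against Namalwa, 463 to 1868 against Raji, 352 to 1839 between Namalwa and Raji, 10 to 31 in the interferon list, 1 to 19 in the EBNA2 and LMP1 list, 0 to 59 and 0 to 126 on treated arrays and 24 to 508 for the change with treatment. There the lone array of a line is assumed to vary like the other groups. The replicate number as a block gave 166 and 223 genes untreated, 0 and 2 treated and 155 for the change with treatment, but same-numbered arrays share only a number: their deviations correlated at -0.20 to 0.14 untreated and -0.55 to 0.27 treated. The 2 arrays per line, the single line per group and dim signals limit all results, and the causes of the shifts were not tested.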

Other observations

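Over all chromosomes, 1.6% of genes were higher and 2.2% lower in Daudi. Shares of higher genes above 3% were found on chromosomes 3, 14, 15, 19 and 22, and shares of lower genes above 3.5% on chromosomes 1, 2, 7, 10, 13, 18 and X, with no test of these shares. On chromosome 14, 13 of 381 tested genes were higher in Daudi (3.41%) and 1 was lower (0.262%), and on chromosome 15 13 of 360 were higher (3.61%) and 3 lower (0.833%). Chromosome 1 ran the other way, with 9 of 1200 higher (0.75%) and 43 lower (3.58%). On the X chromosome 18 of 463 tested genes were lower (3.89%) and 4 higher (0.864%). Besides DDX3X and TMSB4X, the X-linked genes that were lower include ARHGEF6, an exchange factor for Rac and Cdc42, at 6.66 and 6.48 in Daudi, 8.78 and 9.13 in Namalwa and 8.53 and 8.86 in Raji. JADE3, a PHD-finger protein gene, read 4.76 and 5.09 in Daudi, 7.34 and 7.23 in Namalwa and 7.18 and 7.14 in Raji. CCDC22, which acts in endosomal sorting, was lower, at -2.08 ± 0.23 and -1.85 ± 0.23, and DYNLT3, a dynein light chain, at -2.15 ± 0.14 and -2.41 ± 0.14. The other CCDC22 probe set was not called (-0.40 and -0.35). These X-linked genes were picked after their values were seen.

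Neighbouring tested genes were called in the same direction in 6 pairs higher and 11 pairs lower. Some such pairs arise wherever this many genes are called. The number to be found by position alone was not worked out, so the pairs are a description. The higher pairs are IFI44L with IFI44, SPA17 with NRGN, UGGT2 with MBNL2, DDX24 with IFI27, SMIM7 with SIN3B and NCF4 with CSF2RB. The lower pairs include HLA-DQA1 with HLA-DQB1, SGCE with PEG10, BANK1 with SLC39A8, NDUFB3 with CFLAR and BIK with TSPO. Of the 454 called genes, 175 have more than 1 probe set, and another probe set was called in the same direction for 56 of them and in the opposite direction for 1, IGHM. DNA copy number was not measured in the data used here.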
